A study of Rattus norvegicus with 8 samples.

Results

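The response of rat liver to dexamethasone was measured in animals that also carried AICAR, by setting the 2 arrays of livers given dexamethasone plus AICAR against the 2 arrays of livers given AICAR. These are 4 of the 8 arrays of the study. The other 4 arrays, 2 of vehicle and 2 of dexamethasone, gave the response to dexamethasone without AICAR. All livers came from male Sprague-Dawley rats of 180 to 200 g. The AICAR group received AICAR at 0.7 g/kg into the peritoneum and saline into the muscle, and the combination group received the same AICAR and dexamethasone at 1.5 mg/kg into the muscle. The dexamethasone group received dexamethasone at that dose and saline into the peritoneum, and the vehicle group received saline at both sites. Livers were taken 8 h after the injections. Whether different animals stand behind the 2 arrays of a group is not in the labels, so a p-value speaks only of how far these arrays lie apart and may reflect technical spread.

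Dexamethasone is a synthetic glucocorticoid. It binds the glucocorticoid receptor, a nuclear receptor that raises genes of glucose production and amino acid breakdown in liver and lowers many genes of inflammation. AICAR is a nucleoside that cells convert into a mimic of AMP, and it activates AMPK, the kinase that senses low cellular energy and holds back the synthesis of glucose and fat. The study asked whether AMPK, acting through the p38 kinase on the glucocorticoid receptor, changes the metabolic actions of glucocorticoids.

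The values are log2 levels per probe set, and a change is a difference of log2 levels (1 is 2-fold). Values after ± are standard errors from the limma fit over all 8 arrays, a gene was called at a Benjamini-Hochberg adjusted p under 0.05 over all probe sets, and each group has n = 2. The 2 arrays of a group correlated at 0.997 to 0.998 across probe sets, and arrays of different groups at 0.979 to 0.993. The hepatocyte genes Alb and Ttr, which encode albumin and transthyretin, were near the top of the scale, with Alb at 14.68 and 14.70 after AICAR and 14.74 and 14.74 after the combination, and neither was called between these groups. For actin, the 3′ control probe set lay above the 5′ one by 1.82 ± 0.03 after AICAR and 1.80 ± 0.04 after the combination (SD, n = 2), so that this measure of RNA integrity differed by less than its spread. The gap was 2.23 ± 0.04 in vehicle and 2.04 ± 0.01 after dexamethasone. For GAPDH it was 0.39 ± 0.02 after AICAR and 0.33 ± 0.02 after the combination.

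With AICAR present, dexamethasone changed 9563 of 31042 probe sets (30.8%), 4935 upwards and 4628 downwards. By gene, 5424 of 14217 were called (38.2%), with 2660 higher (18.7%) and 2764 lower (19.4%). Without AICAR, 3223 genes were called (22.7%), with 1190 higher (8.37%) and 2033 lower (14.3%). Of those changes, 239 rises (1.68% of genes) and 393 falls (2.76%) reached 2-fold with AICAR, against 144 rises (1.01%) and 227 falls (1.6%) without it. The difference between the dexamethasone effects with and without AICAR, the interaction, was itself called for 2841 genes (20.0%), 1696 of them in the upward (11.9%) and 1145 in the downward direction (8.05%). By probe set it was called for 4858 (15.6%), and for 2910 to 3130 when AICAR array 1 or either combination array was left out.

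Most genes that dexamethasone moved at least 2-fold without AICAR moved the same way with it. Of the 144 genes that dexamethasone raised at least 2-fold without AICAR, 105 (72.9%) were also called higher with AICAR, 20 were not called and 19 were called lower. The interaction was called towards a smaller or opposite effect for 96 of these 144 genes (66.7%) and towards a larger effect for 9. Over all genes it was called downwards for 8.05% and upwards for 11.9%. The interaction subtracts the change that chose the 144 genes, which by itself favours smaller effects, so this count is no test of a weaker response. The median change of the 144 genes was 1.45 without AICAR, the comparison that chose them, and 0.77 with it. Of the 227 genes lowered at least 2-fold without AICAR, 192 (84.6%) were also lower with AICAR, 22 were not called and 13 were higher. Their median change was -1.33 without AICAR and -1.22 with it. For 85 of the 227 (37.4%) the interaction was called towards a smaller or opposite effect, and for 54 towards a larger one, with the same limit. No test compared the share of rises with the share of falls. Read the other way, of the 239 genes raised at least 2-fold with AICAR, 138 were also called higher without it and 12 were called lower, and of the 393 lowered at least 2-fold, 321 were also called lower and 14 higher.

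**Figure D1:**
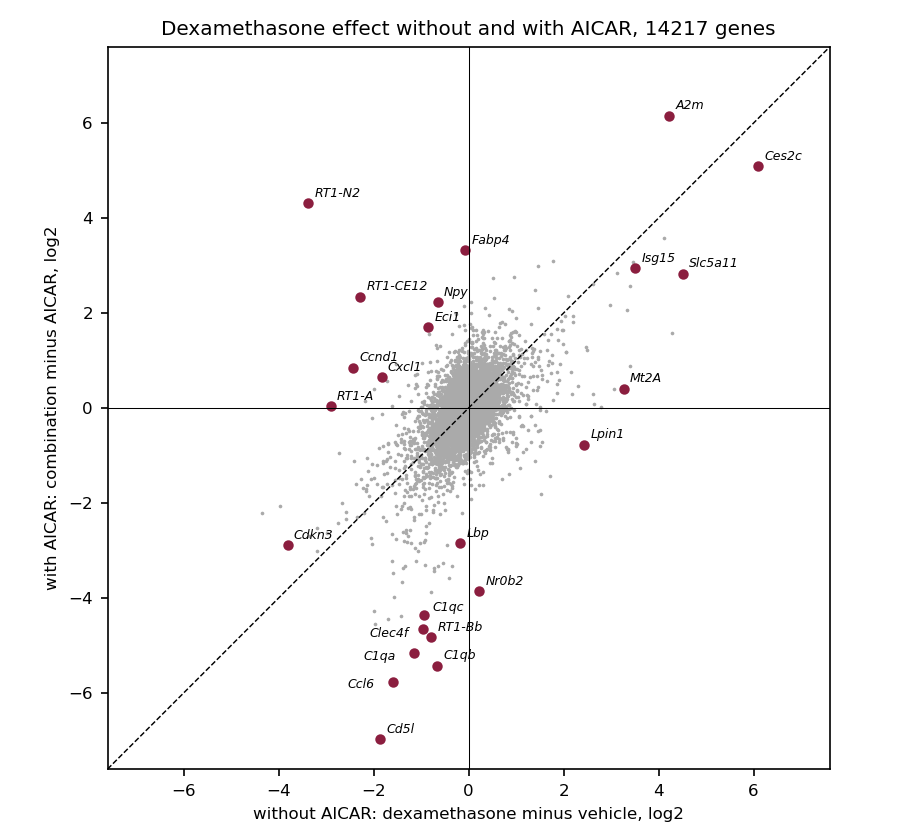
Dexamethasone effect on 14217 genes, each a point, without AICAR (dexamethasone minus vehicle, log2, horizontal) and with AICAR (combination minus AICAR, log2, vertical); the 2 axes share no arrays and the dashed line marks equal effects. A2m and Ces2c rose on both axes, Lpin1 and Mt2A lie far to the right of the line, RT1-N2 and Ccnd1 fell without AICAR and rose with it, and Cd5l, C1qa and C1qb lie far below the line.

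The largest rise with AICAR belonged to A2m, which encodes the protease inhibitor alpha-2-macroglobulin, an acute phase protein of the rat (probe set 1367794_at). Its levels were 9.56 and 9.43 in vehicle, 13.73 and 13.69 after dexamethasone, 7.49 and 7.72 after AICAR and 13.75 and 13.77 after the combination. The AICAR arrays were the lowest of the 4 groups. The rise was 6.15 ± 0.09 with AICAR (adjusted p = 4.83e-09) against 4.22 ± 0.09 without it. Ces2c, a carboxylesterase, followed at 5.10 ± 0.14 (adjusted p = 9e-08), with levels of 7.39 and 7.50 after AICAR and 12.49 and 12.59 after the combination. The rise without AICAR was 6.10 ± 0.14, so the effect was smaller with AICAR (interaction -1.0, adjusted p = 0.00995). Rbp7, a retinol-binding protein, rose by 3.58, Eif4ebp3, an inhibitor of translation initiation, by 3.07 and Usp2, a deubiquitinating enzyme, by 2.84. The same genes rose by 4.10, 3.46 and 3.13 without AICAR.

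Some of the 12 largest rises were larger with AICAR than without. Fabp4, the fatty acid-binding protein known from adipocytes and macrophages, had levels of 4.89 and 4.50 in vehicle, 4.59 and 4.66 after dexamethasone, 4.71 and 4.79 after AICAR and 8.10 and 8.07 after the combination. Only the combination arrays stood above the rest, by 3.33 ± 0.12 over AICAR (adjusted p = 3.75e-07), and the interaction was 3.40 (adjusted p = 8.81e-06). Pla2g12a, a secreted phospholipase, rose by 3.10 with AICAR and 1.78 without. Gucy2c, the guanylate cyclase receptor for guanylin peptides, rose by 2.98 and 1.47. Per2, a repressor of the circadian clock, rose by 2.75 and 0.96, and its other probe set was called in neither direction with AICAR. For these 3 genes the interaction was called, with adjusted p of 0.000942, 0.000894 and 2.75e-05. Slc5a11, a sodium-coupled inositol transporter, went the other way, with 2.83 with AICAR and 4.51 without, and so did Isg15, an interferon-induced ubiquitin-like protein, with 2.94 and 3.50.

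Known glucocorticoid targets were measured for 31 genes. With AICAR, 16 were called higher, 9 lower and 6 not at all, with a median change of 0.29, beside -0.02 over all genes. Without AICAR, 24 were called higher and 3 lower, with a median of 0.91. The shares of all genes were 18.7% higher and 19.4% lower with AICAR, and 8.37% higher and 14.3% lower without it. The interaction was called for 24 of the 31, 20 of them downwards, against 20.0% of all genes. Of the 24 targets that dexamethasone raised alone, 15 were higher with AICAR as well, 4 were not called and 5 were lower.

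**Figure D2:**
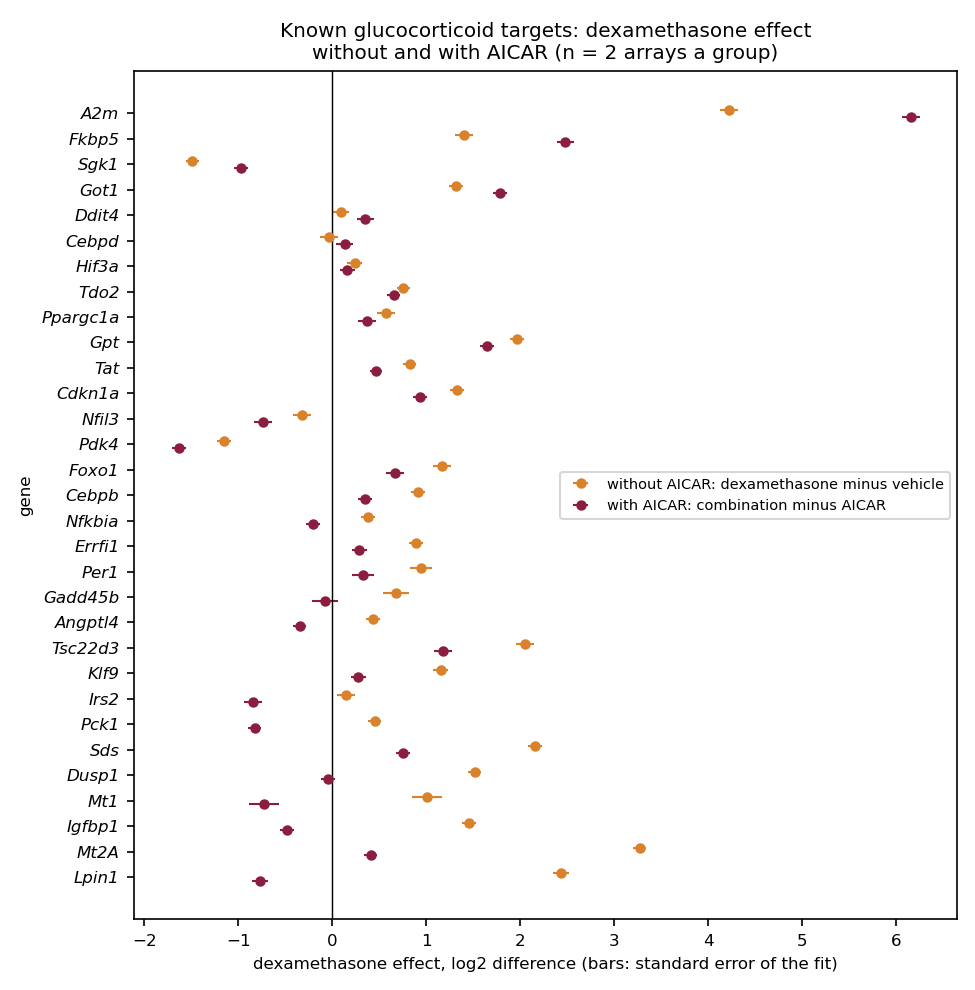
Dexamethasone effect on the 31 known glucocorticoid targets (log2 difference, horizontal; genes, vertical, ordered by interaction), without AICAR in orange and with AICAR in dark red; bars are standard errors of the fit, with 2 arrays a group. A2m, Fkbp5 and Got1 lie further right with AICAR, and most other targets lie further left with AICAR than without it. Lpin1, Igfbp1, Mt1, Pck1 and Angptl4 were called in opposite directions. Some targets with an effect not called, such as Irs2 and Dusp1, also lie on opposite sides of 0.

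The targets called as rising more with AICAR were A2m, Fkbp5 and, less firmly, Got1. Fkbp5 encodes a cochaperone that lowers the affinity of the glucocorticoid receptor for its hormone (probe set 1380611_at). Its levels were 6.04 and 6.31 in vehicle, 7.55 and 7.61 after dexamethasone, 5.96 and 5.93 after AICAR and 8.40 and 8.45 after the combination, with the combination arrays above all others. It rose by 2.48 ± 0.10 with AICAR (adjusted p = 5.88e-07) and by 1.40 ± 0.10 without, and the interaction was 1.08 (adjusted p = 0.00125). Got1, the cytosolic aspartate aminotransferase, rose by 1.78 ± 0.07 and 1.32 ± 0.07, with an interaction of 0.46 (adjusted p = 0.0196). This interaction was not called after cyclic loess (0.35, adjusted p = 0.0575) or without 5 of the 8 single arrays (adjusted p of up to 0.0753). Its AICAR arrays lay lowest, at 9.24 and 9.25, and its combination arrays at 11.04 and 11.00.

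Gpt, Tdo2 and Ppargc1a also rose, with no called interaction in the fit used here. Gpt, the alanine aminotransferase that feeds alanine carbon into glucose, rose by 1.64 ± 0.07 with AICAR and 1.97 ± 0.07 without. Its interaction of -0.32 (adjusted p = 0.0719) was called downwards under 5 alternatives, among them cyclic loess (-0.44, adjusted p = 0.0173) and median centring (-0.38, adjusted p = 0.0312). Tdo2, which opens the breakdown of tryptophan, rose by 0.65 ± 0.07 and 0.75 ± 0.07. Ppargc1a, a coactivator of gluconeogenic genes, rose by 0.36 ± 0.10 (adjusted p = 0.0203) and 0.57 ± 0.10, and its rise with AICAR was not called without AICAR array 1 or without either combination array, with adjusted p of up to 0.114.

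For 9 targets the rise was called as smaller with AICAR, 3 of them by interactions that were lost under other settings. For Tat this call was lost without any 1 of the 8 arrays (adjusted p of up to 0.106) and with the replicate number as a block (0.0529). For Cdkn1a it was lost without 7 of the single arrays (up to 0.124), with the block (0.0587) and with the mean of probe sets (0.088). For Foxo1 it was lost without 7 of the single arrays (up to 0.124), and the mean of its probe sets gave -0.18 (adjusted p = 0.18). Tsc22d3, known as GILZ, a mediator of the anti-inflammatory action of glucocorticoids (probe set 1367771_at), had levels of 8.37 and 8.09 in vehicle, 10.30 and 10.24 after dexamethasone, 8.46 and 8.51 after AICAR and 9.69 and 9.64 after the combination. The AICAR arrays overlapped none of the dexamethasone arrays, and the rise was 1.18 ± 0.10 with AICAR (adjusted p = 4.15e-05) and 2.05 ± 0.10 without (interaction -0.87, adjusted p = 0.00402). Mt2A, a metallothionein that binds zinc, had levels of 9.42 and 9.39 in vehicle, 12.70 and 12.64 after dexamethasone, 11.27 and 11.26 after AICAR and 11.70 and 11.64 after the combination. AICAR alone raised it by 1.86 ± 0.07, and added dexamethasone raised it by only 0.41 ± 0.07, against 3.27 ± 0.07 from vehicle. Sds, the serine dehydratase of gluconeogenesis, had levels of 7.34 and 7.41 in vehicle, 9.52 and 9.55 after dexamethasone, 6.10 and 6.15 after AICAR and 6.91 and 6.83 after the combination, so that the combination stayed below vehicle, and it rose by 0.75 with AICAR against 2.16 without. Tat, the tyrosine aminotransferase long used as a marker of glucocorticoid action, rose by 0.46 and 0.82. Klf9 and Foxo1, both transcription factors, rose by 0.28 and 0.67 with AICAR and by 1.15 and 1.17 without. The other 3 were Cdkn1a, an inhibitor of cell cycle kinases, Cebpb, a liver transcription factor, and Errfi1, an inhibitor of EGF receptor signalling, with rises of 0.93, 0.34 and 0.29 with AICAR. The rises of Klf9, Errfi1 and Cebpb with AICAR were not stable. That of Klf9 was not called after cyclic loess scaling (0.17, adjusted p = 0.0995), with the mean of its probe sets (0.12, adjusted p = 0.218), or without AICAR array 1 or either combination array (adjusted p of up to 0.155). That of Errfi1 was not called after cyclic loess (0.19, adjusted p = 0.0811), or without either AICAR array or combination array 1 (up to 0.123). For Cebpb the call was lost without AICAR array 1 (0.052) or combination array 1 (0.067).

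No rise was called with AICAR for Dusp1, Per1, Nfkbia and Gadd45b. Dusp1, the phosphatase that switches off p38 and related kinases, had levels of 9.50 and 9.58 in vehicle, 11.03 and 11.07 after dexamethasone, 9.95 and 10.04 after AICAR and 9.94 and 9.96 after the combination. AICAR alone raised it by 0.45 ± 0.07, the combination arrays overlapped the AICAR arrays, and the change with AICAR was -0.04 ± 0.07 (adjusted p = 0.697) against 1.51 ± 0.07 without. The mean of all Dusp1 probe sets gave -0.35 (adjusted p = 0.00404). Per1, a clock gene, changed by 0.32 ± 0.12 (adjusted p = 0.0675) with AICAR and by 0.94 ± 0.12 without, and its rise with AICAR was called without AICAR array 2 (0.50, adjusted p = 0.0134) and with a trended, robust prior (adjusted p = 0.0291). Nfkbia, the inhibitor of NF-kB, changed by -0.20 ± 0.08 (adjusted p = 0.072) and 0.38 ± 0.08, and Gadd45b, a stress-response gene, by -0.08 ± 0.14 and 0.68 ± 0.14. The fall of Nfkbia was called under 4 alternatives, among them cyclic loess (-0.28, adjusted p = 0.0185). The interaction was called for all 4, with adjusted p between 4.13e-05 for Dusp1 and 0.0385 for Per1. It was lost for Per1 without 7 of the 8 single arrays (adjusted p of up to 0.125) and for Gadd45b without 6 of them (up to 0.0975).

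For 5 targets dexamethasone acted in opposite directions without and with AICAR. Lpin1, the phosphatidate phosphatase lipin 1, had levels of 7.94 and 7.98 in vehicle, 10.34 and 10.44 after dexamethasone, 8.39 and 8.32 after AICAR and 7.69 and 7.48 after the combination. The arrays of dexamethasone alone were the highest and those of the combination the lowest, and Lpin1 rose by 2.43 ± 0.09 without AICAR and fell by 0.77 ± 0.09 with it (adjusted p = 0.000243). The interaction of -3.20 was the most negative of the 31 targets (adjusted p = 2.63e-06). Igfbp1, a liver-secreted binding protein of insulin-like growth factors, had levels of 8.79 and 8.88 in vehicle, 10.26 and 10.31 after dexamethasone, 9.82 and 9.91 after AICAR and 9.38 and 9.38 after the combination, and it fell by 0.48 ± 0.07 with AICAR (adjusted p = 0.00134) but rose by 1.45 without. Pck1, which encodes the cytosolic PEPCK that commits carbon to gluconeogenesis, had levels of 12.98 and 12.95 in vehicle, 13.44 and 13.39 after dexamethasone, 13.11 and 13.12 after AICAR and 12.32 and 12.26 after the combination. It rose by 0.45 ± 0.07 without AICAR and fell by 0.83 ± 0.07 with it (adjusted p = 4.63e-05), and the combination arrays lay below all others. Mt1, another metallothionein, and Angptl4, an inhibitor of lipoprotein lipase, fell by 0.73 ± 0.16 and 0.35 ± 0.07 with AICAR. Without combination array 2 neither of these falls was called, with -0.64 (adjusted p = 0.0553) for Mt1 and -0.32 (adjusted p = 0.0535) for Angptl4.

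The remaining targets were Sgk1, Pdk4, Nfil3, Irs2, Ddit4, Cebpd and Hif3a. Pdk4, which blocks pyruvate oxidation, fell by 1.64 ± 0.08 with AICAR and by 1.15 ± 0.08 without. Sgk1, a kinase known as a steroid-induced gene, fell by 0.97 ± 0.07 and 1.49 ± 0.07, and Nfil3, a transcription repressor, by 0.74 ± 0.09 and 0.33 ± 0.09. Irs2, an adaptor of the insulin receptor, fell by 0.85 ± 0.09 with AICAR and was not called without it (0.14 ± 0.09). Ddit4, a brake on mTOR, rose by 0.35 ± 0.09 with AICAR, and this call was lost without AICAR array 2 or either combination array (adjusted p of up to 0.128). Cebpd and Hif3a were called in neither comparison.

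The receptor itself was lower. Nr3c1, which encodes the glucocorticoid receptor, had levels of 10.38 and 10.27 in vehicle, 10.12 and 9.92 after dexamethasone, 9.84 and 9.91 after AICAR and 9.08 and 9.05 after the combination. It fell by 0.81 ± 0.09 with AICAR (adjusted p = 0.000191) and by 0.31 ± 0.09 without (adjusted p = 0.043), and the combination arrays lay below all others. Of 22 genes of AMPK, p38 and the receptor's coactivators, 4 rose and 3 fell with AICAR, beside 18.7% and 19.4% of all genes. Map2k6, the kinase that activates p38, rose by 1.06 ± 0.08 with AICAR and 0.97 ± 0.08 without. Prkag2, a regulatory subunit of AMPK, rose by 0.85 ± 0.08 with AICAR (adjusted p = 7.78e-05) and fell by 0.33 ± 0.08 without. The other calls were changes of 0.36 or less, in Prkaa1, Map2k3, Mapk14 and Prkab1, and each of these 4 was lost without 1 or another of several single arrays. For Prkaa1, the catalytic subunit of AMPK, the probe sets disagreed, with 0.36 for the brightest probe set and -0.035 for their mean.

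**Figure D3:**
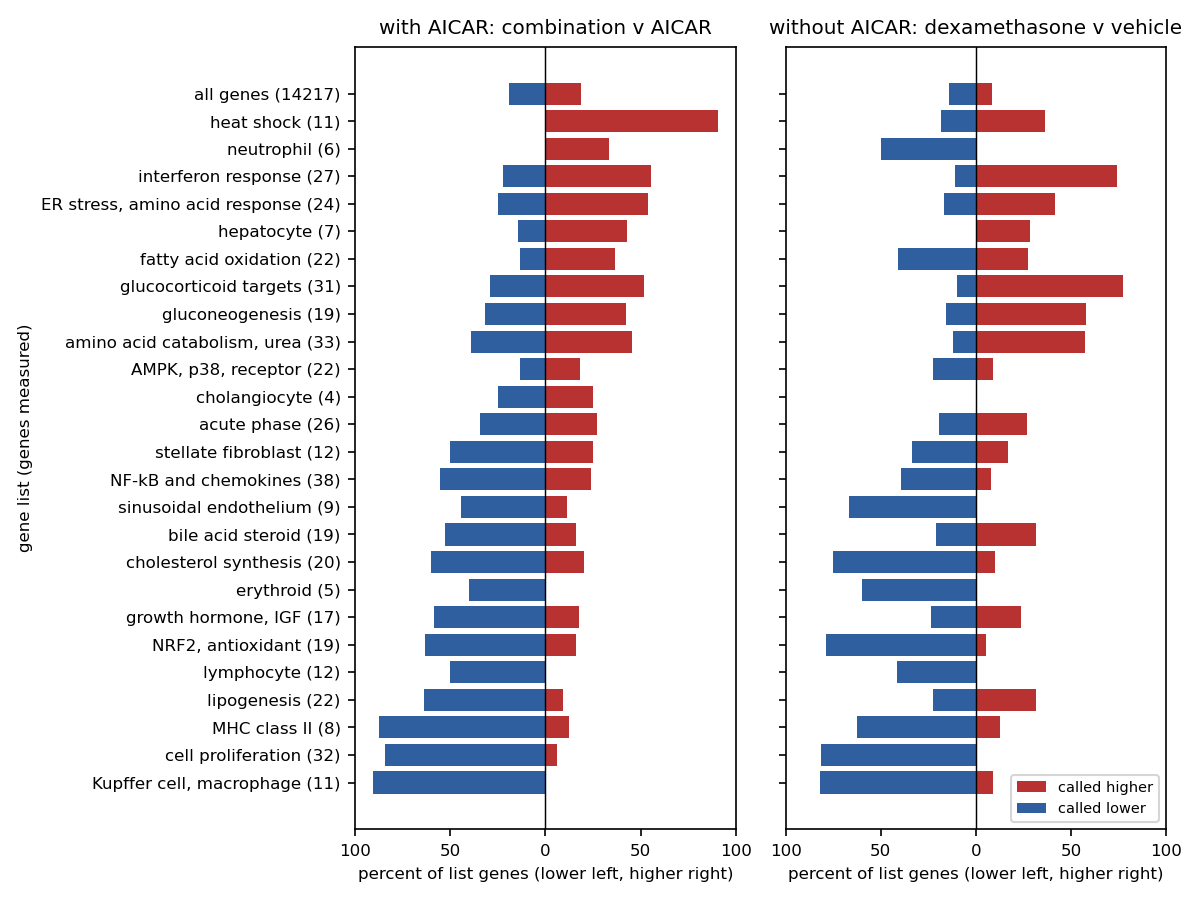
Share of the genes of each list called higher (red, to the right) and lower (blue, to the left) by dexamethasone, in percent of the genes measured, with AICAR (left panel) and without (right panel); numbers in brackets are genes measured, and the top bar is all 14217 genes. Heat shock genes have the highest share of rises with AICAR (10 of 11), and Kupffer cell markers the highest share of falls (10 of 11), beside 18.7% and 19.4% of all genes.

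Genes of gluconeogenesis split with AICAR. Of 19 measured, 8 rose and 6 fell, against 11 and 3 without AICAR. Beside this list and each list below, 18.7% of all genes were higher and 19.4% lower with AICAR. Without AICAR, 8.37% of all genes were higher and 14.3% lower. The aminotransferases Got1, Gpt and Gpt2 were among the rises, with 0.91 for Gpt2. Besides Pck1, the falls included Pc, the pyruvate carboxylase that starts the pathway, by 1.01 ± 0.08 (adjusted p = 4.48e-05), and Gk, the glycerol kinase, by 0.85 ± 0.07. Pc did not pass the test without AICAR (-0.03 ± 0.08), and its interaction was -0.98 (adjusted p = 0.00111). Fbp1, the fructose-bisphosphatase, fell by 0.57 ± 0.07 with AICAR and rose by 0.49 ± 0.07 without.

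Of 33 genes of amino acid breakdown and the urea cycle, 15 rose and 13 fell with AICAR, against 19 and 4 without it. The urea cycle genes Ass1 and Cps1 rose by 0.71 and 0.32. The rise of Cps1 was not called after cyclic loess (0.22, adjusted p = 0.0665) or without any 1 of the 4 arrays compared. Bckdhb, a subunit of the branched-chain ketoacid dehydrogenase, had levels of 10.12 and 10.12 in vehicle, 11.16 and 11.24 after dexamethasone, 10.26 and 10.27 after AICAR and 9.05 and 8.95 after the combination. It fell by 1.27 ± 0.07 with AICAR and rose by 1.08 ± 0.07 without (interaction -2.35, adjusted p = 4.99e-06). Cth, which makes cysteine from cystathionine, fell by 1.38 ± 0.07 and rose by 0.23 without AICAR. Oat and Kmo, enzymes of ornithine and kynurenine metabolism, fell by 1.86 and 1.86 with AICAR, and by 0.65 and 1.35 without.

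Most lipogenic genes fell with AICAR present. Of 22 measured, 14 were lower and 2 higher, with a median of -0.61, against 5 lower and 7 higher (median 0.02) without AICAR. The 2 rises became 0 or 1 without any 1 of the 4 arrays compared. Of the 7 that dexamethasone raised alone, 5 were lower with AICAR and none was higher. Acaca, the acetyl-CoA carboxylase that AMPK also controls by phosphorylation, had levels of 8.39 and 8.45 in vehicle, 9.92 and 9.92 after dexamethasone, 9.07 and 9.10 after AICAR and 8.26 and 8.30 after the combination. AICAR alone raised it, the arrays of dexamethasone alone were highest, and it fell by 0.80 ± 0.07 with AICAR (adjusted p = 5.23e-05) and rose by 1.50 ± 0.07 without. Fasn, the fatty acid synthase, fell by 0.75 ± 0.07 and rose by 1.03 without AICAR. Scd, the stearoyl-CoA desaturase, had levels of 11.73 and 11.72 in vehicle, 11.60 and 11.60 after dexamethasone, 11.82 and 11.88 after AICAR and 9.65 and 9.62 after the combination, and only the combination arrays stood apart. It fell by 2.21 with AICAR (interaction -2.08, adjusted p = 6.48e-06). Pklr, the liver pyruvate kinase, fell by 1.61 with AICAR and changed by 0.05 ± 0.07 without. The fatty acid desaturases Fads1 and Fads2 fell by 2.30 and 1.48 with AICAR and by 1.81 and 1.47 without.

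Of 20 genes of cholesterol synthesis, AICAR alone raised 17 (beside 6.22% of all genes). Dexamethasone lowered 12 and raised 4 with AICAR, against 15 and 2 without. The first 2 counts share the AICAR arrays. Cyp51, a sterol demethylase, had levels of 11.61 and 11.60 in vehicle, 10.22 and 10.27 after dexamethasone, 12.15 and 12.09 after AICAR and 11.45 and 11.42 after the combination, so that the combination lay near vehicle. It fell by 0.69 with AICAR and by 1.36 without. Insig1, the sterol sensor that retains SREBP in the endoplasmic reticulum, fell by 0.63 ± 0.07 with AICAR and rose by 0.72 ± 0.07 without, and Sqle, the squalene epoxidase, rose by 0.46 ± 0.07 with AICAR and fell by 0.71 ± 0.07 without.

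Among 19 genes of bile acid and steroid handling, 3 rose and 10 fell with AICAR, against 6 and 4 without. The largest change was that of Nr0b2, known as SHP, the bile acid-induced repressor of bile acid synthesis. Its levels were 8.84 and 8.95 in vehicle, 9.15 and 9.10 after dexamethasone, 8.73 and 8.64 after AICAR and 4.91 and 4.75 after the combination. The arrays of the other 3 groups lay between 8.64 and 9.15, and it fell by 3.86 ± 0.09 with AICAR (adjusted p = 3.87e-08), with 0.23 ± 0.09 for dexamethasone alone (adjusted p = 0.103). Cyp7a1, the hydroxylase that opens the classical route from cholesterol to bile acids, was raised by AICAR and fell by 0.89 ± 0.07 with added dexamethasone. Its levels of 9.43 and 9.51 in vehicle, 10.29 and 10.29 after dexamethasone, 11.57 and 11.58 after AICAR and 10.66 and 10.71 after the combination left the combination above vehicle. Abcb11, the bile salt export pump, fell by 0.94 ± 0.07 with AICAR, and the sterol exporters Abcg5 and Abcg8 fell by 2.33 and 1.84, and fell by 2.59 and 1.25 without AICAR. Cyp17a1, a steroid hydroxylase, rose by 2.04 ± 0.10 and 0.92 ± 0.10.

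Of 22 genes of fatty acid oxidation and ketone formation, 8 rose and 3 fell with AICAR, against 6 and 9 without. Among all genes, 18.7% rose and 19.4% fell with AICAR. With the mean of probe sets per gene, 12 of the 22 rose and 3 fell. With a trended, robust prior, 13 rose and 4 fell. Cyp4a3, a fatty acid omega-hydroxylase, rose by 0.92 ± 0.08 with AICAR and fell by 1.52 ± 0.08 without (interaction 2.45, adjusted p = 4.14e-06). Fgf21, a fasting hormone of liver, rose by 1.07 and 1.33. Bdh1, which interconverts ketone bodies, and Ehhadh, a peroxisomal enzyme, fell by 1.71 and 1.32 with AICAR and by 1.16 and 2.12 without. Eci1, an isomerase of the same pathway outside the list, had levels of 10.66 and 10.79 in vehicle, 9.76 and 10.00 after dexamethasone, 9.92 and 9.98 after AICAR and 11.67 and 11.65 after the combination and rose by 1.71 ± 0.09 with AICAR and fell by 0.85 ± 0.09 without.

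Heat shock genes rose with AICAR: 10 of 11 were called higher and none lower, with a median of 0.43, against 4 higher and 2 lower (median 0.05) without AICAR. Hsph1, a cytosolic chaperone of the HSP110 family, had levels of 9.44 and 9.38 in vehicle, 9.0 and 9.12 after dexamethasone, 8.78 and 8.73 after AICAR and 10.30 and 10.32 after the combination. Its AICAR arrays were the lowest and its combination arrays the highest. It rose by 1.55 ± 0.08 (adjusted p = 2.11e-06) and it fell by 0.35 ± 0.08 without AICAR. Hspa1a, the inducible HSP70, rose by 0.73 ± 0.09 with AICAR and changed by -0.16 ± 0.09 without. The mitochondrial chaperones Hspe1, Hspd1 and Hspa9 rose in both comparisons, by 0.87, 0.79 and 0.69 with AICAR, and their interactions were not called.

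Among 24 genes of endoplasmic reticulum stress and the amino acid response, 13 rose and 6 fell with AICAR, against 10 and 4 without. Creld2, a secreted ER stress protein, had levels of 10.00 and 9.99 in vehicle, 9.89 and 9.89 after dexamethasone, 9.95 and 9.98 after AICAR and 11.70 and 11.72 after the combination, with only the combination arrays apart, 1.74 ± 0.07 above AICAR (interaction 1.85, adjusted p = 1.15e-05). Manf, a related stress-secreted factor, Hspa5, the chaperone BiP, and Ddit3, known as CHOP, rose by 0.78, 0.50 and 1.0 with AICAR and had a called interaction. Edem1 and Herpud1, of ER-associated degradation, and Dnajb9 rose by 1.84, 1.26 and 0.95, with no called interaction. Hyou1, a chaperone of the ER lumen, fell by 0.86 with AICAR and by 0.83 without.

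Of 19 genes of the NRF2 antioxidant response, 12 fell and 3 rose with AICAR, against 15 and 1 without. The 3 rises became 1 without either AICAR array or combination array 2 and 0 without combination array 1, while the falls stayed at 11. Osgin1, an oxidative stress-induced growth inhibitor, fell by 2.21 ± 0.07 with AICAR and fell by 2.20 ± 0.07 without. Akr7a3, an aldehyde reductase, fell by 2.23 ± 0.09 with AICAR and fell by 1.50 ± 0.09 without. Hmox1, the heme oxygenase that is also a product of macrophages, fell by 1.58 ± 0.10 with AICAR and 0.46 ± 0.10 without.

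Genes of cell proliferation were lower after dexamethasone in both settings. With AICAR 27 of 32 fell and 2 rose, with a median of -0.95, against 26 and none without AICAR (median -1.22). Of the 26, 24 were lower with AICAR as well. Ccna2, cyclin A2, fell by 3.0 ± 0.14 with AICAR and fell by 3.19 ± 0.14 without. Ccnb1, cyclin B1, fell by 2.29 ± 0.12 and, without AICAR, fell by 2.36 ± 0.12, and the interaction was called for neither gene. Ccnd1, the cyclin that carries cells out of G1, was the exception: its levels were 8.91 and 8.92 in vehicle, 6.37 and 6.59 after dexamethasone, 7.84 and 7.81 after AICAR and 8.68 and 8.67 after the combination. The arrays of dexamethasone alone were the lowest, and the combination lay 0.85 ± 0.09 above AICAR (adjusted p = 0.000133), for an interaction of 3.28 (adjusted p = 2.19e-06). The second rise was that of Ccne1, cyclin E1, by 0.37 ± 0.10, and it was not called with only the groups compared (adjusted p = 0.0615), or without AICAR array 2 or combination array 1 (up to 0.184).

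Of 17 genes of growth hormone and insulin-like growth factor signalling, 10 fell and 3 rose with AICAR (beside 19.4% and 18.7% of all genes), against 4 and 4 without AICAR. The 3 rises became 1 without AICAR array 1 or either combination array. Igfals, Ghr, Socs2 and Igf1, which encode the acid-labile carrier, the growth hormone receptor, a feedback inhibitor and the hormone IGF-1, fell by 1.48, 0.73, 0.64 and 0.40, and all 4 were lower without AICAR as well. Igfbp3, the main carrier of IGF-1 in plasma, fell by 0.90 ± 0.08 with AICAR and rose by 0.32 ± 0.08 without. Stat3, the factor that relays interleukin 6, rose by 0.85 ± 0.08 and 0.38 ± 0.08.

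Markers of Kupffer cells, the resident macrophages of liver, made up most of the largest falls. Of 11 measured, 10 were lower with AICAR and none was higher, with a median of -4.36, against 9 lower and 1 higher (median -0.96) without AICAR, and the interaction was called downwards for all 11. The mean level of the 11 markers was 8.94 to 8.96 after AICAR and 4.85 to 4.89 after the combination, beside 8.76 to 8.77 in vehicle and 7.73 to 7.87 after dexamethasone. Cd5l, a secreted product of tissue macrophages (probe set 1385635_at), had levels of 9.85 and 9.75 in vehicle, 7.94 and 7.93 after dexamethasone, 10.10 and 10.07 after AICAR and 3.10 and 3.15 after the combination. It fell by 6.96 ± 0.07 with AICAR (adjusted p = 8.66e-10), the largest fall of the 14217 genes, and fell by 1.87 ± 0.07 without. Clec4f, a lectin of Kupffer cells, had levels of 10.50 and 10.66 in vehicle, 9.54 and 9.71 after dexamethasone, 10.09 and 10.09 after AICAR and 5.40 and 5.50 after the combination and fell by 4.64 ± 0.09. The complement C1q chains C1qa, C1qb and C1qc fell by 5.17, 5.42 and 4.36. Aif1, an actin-binding protein of macrophages, fell by 4.43, and Adgre1, an adhesion receptor of macrophages, fell by 3.97. The other Aif1 probe set was not called. Csf1r, the receptor for macrophage colony-stimulating factor, fell by 3.43 ± 0.09 and Cd163, the hemoglobin scavenger receptor, fell by 3.57 ± 0.10. Mpeg1, a pore-forming protein of macrophages, was the exception at 11.92 and 11.87 after AICAR and 11.89 and 11.91 after the combination. In whole liver, fewer cells of a type and less RNA per cell cannot be told apart.

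The other genes among the 12 largest falls were Ccl6, Stac3, Fcna, Pilra and RT1-Bb. Ccl6, a chemokine, had levels of 10.97 and 10.95 in vehicle, 9.29 and 9.45 after dexamethasone, 11.07 and 11.12 after AICAR and 5.37 and 5.28 after the combination and fell by 5.77 ± 0.08. Stac3, known for its role in the calcium signal of muscle, fell by 4.54 ± 0.07, Fcna, the plasma lectin ficolin A, fell by 4.37 ± 0.14, and Pilra, an inhibitory receptor of myeloid cells, fell by 4.27 ± 0.09. For 4 of the 12 the mean after the combination lay below 3.84, the lowest lower quartile of any array, where RMA levels are close to background, so the size of these falls is uncertain. The same held for 35 of the 393 genes lowered at least 2-fold.

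**Figure D4:**
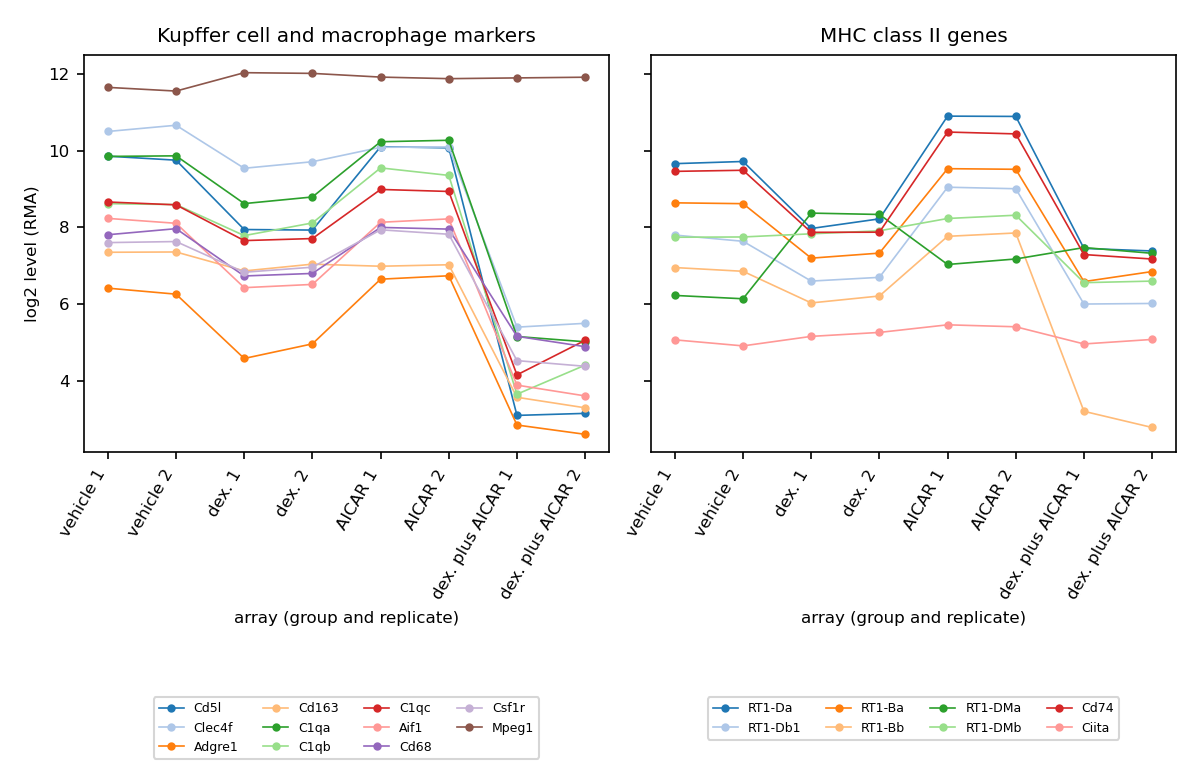
Levels (log2, RMA) of 11 Kupffer cell and macrophage markers (left) and 8 MHC class II genes (right) in each of the 8 arrays, 1 line a gene, with dexamethasone shortened to dex. Apart from Mpeg1, the marker lines drop to the lowest levels in the 2 combination arrays, and most class II lines peak in the 2 AICAR arrays and fall in the combination.

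Genes of MHC class II, the molecules that present antigen to helper T cells, were raised by AICAR and lowered by added dexamethasone. AICAR raised all 8 (beside 6.22% of all genes), and dexamethasone lowered 7 of 8 with AICAR (beside 19.4% of all genes). These 2 counts share the AICAR arrays. The median change with added dexamethasone was -2.91, and -1.86 with the mean of probe sets per gene. When the rise was taken from 1 AICAR array and the fall from the other, 6 of the 8 were called in both, whichever array was used, and RT1-DMa and Ciita were not. RT1-Da, a class II alpha chain, had levels of 9.66 and 9.72 in vehicle, 7.97 and 8.22 after dexamethasone, 10.90 and 10.89 after AICAR and 7.45 and 7.38 after the combination, and it fell by 3.48 ± 0.09 with AICAR (adjusted p = 8.77e-08). Cd74, the invariant chain that guides class II molecules through the cell, had levels of 9.46 and 9.49 in vehicle, 7.87 and 7.87 after dexamethasone, 10.48 and 10.43 after AICAR and 7.29 and 7.17 after the combination and fell by 3.23 ± 0.07 (adjusted p = 4.59e-08). The AICAR arrays were the highest and the combination arrays the lowest for both genes. RT1-Db1 and RT1-Ba fell by 3.02 ± 0.08 and 2.81 ± 0.10. Of 3 further RT1-Ba probe sets, 1 was also called lower and 0 were called higher. RT1-DMb, of the peptide-loading complex, fell by 1.70 ± 0.07. RT1-DMa, its partner chain, rose by 0.29 ± 0.09, less than without AICAR (2.17). This rise was not called after cyclic loess (0.25, adjusted p = 0.0565), with only the groups compared (adjusted p = 0.0551), or without AICAR array 1 or combination array 1 (adjusted p of up to 0.196). Ciita, the master activator of class II genes, fell by 0.41 ± 0.09 (adjusted p = 0.00661), a call lost without combination array 1 (adjusted p = 0.0564). The 2 probe sets of RT1-Bb disagreed, with -4.82 ± 0.13 for the brighter and 0.77 (adjusted p = 0.000191) for the other, so its direction is uncertain. Class II genes are close relatives of one another, so probes can share signal. The Kupffer cell markers also fell with added dexamethasone, by the values given above, and their part in the class II falls was not tested. AICAR alone raised 4 of these 11 markers and lowered 1, beside 6.22% and 8.96% of all genes.

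The promoters of the class II chain genes are shown because RT1-Da, RT1-Db1 and RT1-Ba fell together, with RT1-Bb uncertain. The promoters of class II genes are known to carry a conserved Y box, an inverted CCAAT motif bound by NF-Y. The letters CTGATTGG, searched on both strands, were found in 4 of the 6 class II promoters with a RefSeq entry (build GRCr8, 250 bases before to 50 after the gene start), those of RT1-Da, RT1-Db1, RT1-Ba and RT1-Bb, and in 3.5% of all 33469 promoters in the table. The 4 windows lie in the RT1 complex of chromosome 20, at chr20:4515165-4515464 (plus strand), chr20:4560113-4560412 (minus strand), chr20:4576807-4577106 (plus strand) and chr20:4604069-4604368 (minus strand). Each is written 5′ to 3′ on the strand of the gene, with the Y box letters in capitals. A match describes the sequence and is no evidence of binding here.
RT1-Da: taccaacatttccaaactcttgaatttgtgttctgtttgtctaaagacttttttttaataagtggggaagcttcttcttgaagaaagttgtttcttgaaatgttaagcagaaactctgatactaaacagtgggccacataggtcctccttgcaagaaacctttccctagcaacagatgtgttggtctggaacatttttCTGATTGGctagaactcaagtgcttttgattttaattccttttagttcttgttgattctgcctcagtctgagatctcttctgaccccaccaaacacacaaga
RT1-Db1: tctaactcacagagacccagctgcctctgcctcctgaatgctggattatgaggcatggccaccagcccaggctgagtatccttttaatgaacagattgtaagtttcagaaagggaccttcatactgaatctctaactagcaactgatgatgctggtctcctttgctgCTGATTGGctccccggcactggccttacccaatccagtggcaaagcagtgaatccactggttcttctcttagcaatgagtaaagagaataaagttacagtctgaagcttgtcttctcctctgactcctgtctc
RT1-Ba: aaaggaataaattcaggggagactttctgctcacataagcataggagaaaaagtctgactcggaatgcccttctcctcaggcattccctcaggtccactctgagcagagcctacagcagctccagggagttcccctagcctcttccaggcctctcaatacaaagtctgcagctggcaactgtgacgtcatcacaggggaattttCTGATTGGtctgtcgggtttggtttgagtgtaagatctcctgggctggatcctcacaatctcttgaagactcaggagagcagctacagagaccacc
RT1-Bb: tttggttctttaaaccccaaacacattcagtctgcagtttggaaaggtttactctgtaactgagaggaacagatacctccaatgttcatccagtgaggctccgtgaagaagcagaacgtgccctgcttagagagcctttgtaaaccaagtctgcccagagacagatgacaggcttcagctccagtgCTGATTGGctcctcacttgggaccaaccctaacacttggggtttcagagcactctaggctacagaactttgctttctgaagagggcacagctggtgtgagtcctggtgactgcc
The match began 52, 83, 46 and 64 bases before the gene start in RT1-Da, RT1-Db1, RT1-Ba and RT1-Bb.

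For the markers of other cell types, list medians lay between -0.35 and 0.05, beside -0.02 over all genes. Among all genes, 18.7% rose and 19.4% fell with AICAR. Of 12 lymphocyte markers, 6 fell with AICAR and none rose (median -0.35). Prf1, the perforin of cytotoxic cells, lay at -0.84 ± 0.10 and Cd4 at -0.78 ± 0.13. The T cell genes Cd3d, Cd3e, Cd3g, Cd2 and Cd8a and the B cell gene Cd79b were not called with AICAR. The fall of Lck was not called with the replicate number as a block (-0.26, adjusted p = 0.0523). It was also lost without any 1 of the 4 arrays compared, with changes from -0.21 to -0.30. Of 9 markers of sinusoidal endothelium, 4 fell and 1 rose, with Stab2, a scavenger receptor, at -1.06 ± 0.08 with AICAR and -1.04 ± 0.08 without. Of 12 stellate cell and fibroblast genes, 6 fell and 3 rose. Lrat, which stores retinol in stellate cells, fell by 1.90 ± 0.08, and Dcn, the matrix proteoglycan decorin, rose by 1.56 ± 0.08. Of 6 neutrophil markers, 2 rose and none fell (S100a8 by 0.71 and S100a9 by 0.43), and both were lower after dexamethasone alone. The rise of S100a8 was not called without AICAR array 2 or either combination array (adjusted p of up to 0.0728), and another marker was called lower without AICAR array 2 or with the replicate block. Of 7 hepatocyte markers, 3 rose and 1 fell, and their mean level was 13.4 on both AICAR arrays and 13.6 on both combination arrays. Of 5 erythroid genes 2 fell, and of 4 cholangiocyte genes 1 rose and 1 fell. The single endothelial rise was lost without AICAR array 2 or combination array 2, and the single cholangiocyte rise without AICAR array 1 or combination array 2.

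Chemokines and NF-kB targets fell more often than they rose. Of 38 measured, 21 were lower and 9 higher with AICAR, against 15 and 3 without. Cxcl12, a chemokine that retains leukocytes in tissue, had levels of 11.21 and 11.20 in vehicle, 9.60 and 9.74 after dexamethasone, 11.63 and 11.64 after AICAR and 8.96 and 8.81 after the combination and fell by 2.75 ± 0.08 with AICAR. Ccl5, a T cell attractant, fell by 1.59 with AICAR and fell by 1.46 without. Il1b, which encodes interleukin 1 beta, fell by 2.12 and, without AICAR, fell by 1.41. Irf1, an interferon-gamma-induced factor, fell by 1.34 and, without AICAR, fell by 0.82. Ccl2, the monocyte attractant MCP-1, went the other way: its levels were 4.43 and 4.40 in vehicle, 4.30 and 4.38 after dexamethasone, 4.82 and 4.85 after AICAR and 6.49 and 6.48 after the combination, with the combination arrays 1.65 ± 0.07 above AICAR (interaction 1.72, adjusted p = 1.99e-05). Nfkbiz, a nuclear regulator of NF-kB, and Il1rn, the natural antagonist of interleukin 1, rose by 1.59 ± 0.09 and 1.33 ± 0.08. The other Nfkbiz probe set was not called. Cxcl1, a neutrophil attractant, rose by 0.65 ± 0.13 with AICAR and fell by 1.83 ± 0.13 without. Il1b, Ccl6 and other genes of this list are also products of macrophages, whose markers fell as given above. The part of these cells in the changes of this list was not tested.

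Genes of the interferon response rose more often than they fell after dexamethasone, without and with AICAR. Of 27 measured, 15 rose and 6 fell with AICAR, against 20 and 3 without. The 15 became 13 after cyclic loess and 12 to 13 without any 1 of the 4 arrays compared. All 13 called interactions were downwards. Isg15 had levels of 8.31 and 8.49 in vehicle, 11.84 and 11.97 after dexamethasone, 8.82 and 8.86 after AICAR and 11.80 and 11.76 after the combination. Usp18, which removes ISG15 from proteins, rose by 1.65 with AICAR and by 1.98 without. Mx2, an antiviral GTPase, rose by 1.93 and 2.03, and Ifi44 by 1.18 and 2.04. The Usp18 interaction was called downwards only under 5 alternatives, among them cyclic loess (-0.46, adjusted p = 0.02). That of Mx2 was called only with the mean of its probe sets (-1.20, adjusted p = 0.000176). Mx1, a relative of Mx2, fell by 0.80 ± 0.08 with AICAR and rose by 0.99 ± 0.08 without. The falls included Gbp2, a GTPase known as induced by interferon gamma, by 3.33 ± 0.14, and Psmb8, a subunit of the immunoproteasome, by 1.18 ± 0.08.

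Acute phase genes had no common direction. Of 26 measured, 7 rose and 9 fell with AICAR, with a median of -0.0 that ranged from -0.10 to 0.01 over the alternative settings. AICAR alone had raised 14 and lowered 2, beside 6.22% and 8.96% of all genes. The genes for haptoglobin, the 3 fibrinogen chains, hemopexin and complement C3 were called in neither dexamethasone comparison. Crp, the C-reactive protein, fell by 0.74 ± 0.07 (adjusted p = 6.78e-05), with levels of 13.62 and 13.62 after AICAR and 12.89 and 12.87 after the combination, and Orm1, the alpha-1 acid glycoprotein, rose by 0.25 ± 0.07, against 1.24 ± 0.07 without AICAR. The rise of Orm1 with AICAR was not called after cyclic loess (0.16, adjusted p = 0.125) or without any 1 of the 4 arrays compared.

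Genes that AICAR raised and dexamethasone lowered were taken across the whole table. AICAR raised 885 genes (6.22%). Of these, 490 (55.4%, beside 19.4% of all genes) were lower with added dexamethasone, corresponding to 923 probe sets. Both comparisons use the AICAR arrays, so an AICAR value that is high by chance adds to both. With the rise taken from 1 AICAR array and the fall from the other, 319 to 367 probe sets met both calls, and 173 to 197 of the 490 genes did. The count of probe sets was 370 and 470 without AICAR array 1 or 2, 412 and 470 without vehicle array 1 or 2, and 602 and 600 without combination array 1 or 2. Of the 490, the combination was called above vehicle for 31, below vehicle for 175 and not called against vehicle for 284, beside 15.9% and 18.4% of all genes called above and below. Without AICAR, 158 of the 490 were also called lower after dexamethasone, 289 were not called and 43 were called higher. The shares of all genes in that comparison were 14.3% lower and 8.37% higher. Of the 45 genes that AICAR raised at least 2-fold (0.317%), 28 were lowered by added dexamethasone, 8 rose further and 9 were not called. Among all genes, added dexamethasone lowered 19.4% and raised 18.7%.

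The 15 genes with the largest change in both steps were picked by the size of both changes on these same arrays. A split of the AICAR arrays is therefore no independent check of them. Lbp led them (probe set 1387868_at). It encodes the lipopolysaccharide-binding protein, an acute phase protein that presents bacterial endotoxin to macrophages, and its levels were 8.55 and 8.60 in vehicle, 8.36 and 8.44 after dexamethasone, 11.42 and 11.49 after AICAR and 8.58 and 8.64 after the combination. Only the AICAR arrays stood apart. AICAR raised it by 2.88 ± 0.07, it fell by 2.85 ± 0.07 with added dexamethasone (adjusted p = 7.45e-08), and the combination did not differ from vehicle by the test (0.03 ± 0.07, adjusted p = 0.795). Dexamethasone alone changed it by -0.17 ± 0.07 (adjusted p = 0.152), and the interaction was -2.68 (adjusted p = 2.63e-06).

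Lcn2, which encodes lipocalin 2, a protein that withholds iron from bacteria, had the highest rise under AICAR among the 15. Its levels were 5.05 and 5.02 in vehicle, 5.71 and 6.06 after dexamethasone, 10.90 and 10.93 after AICAR and 9.59 and 9.46 after the combination. AICAR raised it by 5.88 ± 0.11, it fell by 1.39 ± 0.11 with added dexamethasone (adjusted p = 3.62e-05) and rose by 0.85 ± 0.11 under dexamethasone alone, and the combination stayed 4.49 ± 0.11 above vehicle. Pla2g2a, a secreted phospholipase with antibacterial activity, had levels of 6.86 and 7.04 in vehicle, 6.30 and 6.31 after dexamethasone, 8.91 and 8.91 after AICAR and 5.49 and 5.69 after the combination, rose by 1.96 ± 0.09 under AICAR and fell by 3.32 ± 0.09 with added dexamethasone, so that the combination lay below vehicle. Ubd, a ubiquitin-like protein known as FAT10, rose by 1.51 and fell by 2.64, and Cxcl9, a chemokine induced by interferon gamma, rose by 1.10 and fell by 1.64. Both ended below vehicle. Ltb, which encodes lymphotoxin beta, rose by 1.39 ± 0.19 and fell by 1.97 ± 0.19.

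Pilra and the class II genes RT1-Db1 and RT1-Da were also among the 15, and without AICAR they fell by 1.98, 1.07 and 1.59. Lgals3, the lectin galectin 3, known from macrophages, rose by 1.24 and fell by 1.43. The matrix genes Col1a1 and Mfap4 rose by 1.37 and 1.18, then fell by 1.31 and 1.09, back to levels not called against vehicle. Isyna1, the inositol phosphate synthase, rose by 1.58 and fell by 1.72, also to a level not called against vehicle. Nr1d1, the clock repressor REV-ERB alpha, had levels of 4.66 and 4.53 in vehicle, 4.12 and 4.09 after dexamethasone, 6.25 and 5.81 after AICAR and 3.89 and 3.88 after the combination, and its AICAR arrays alone lay above vehicle. Thrsp, a nuclear protein of lipogenesis, had levels of 10.18 and 10.23 in vehicle, 11.64 and 11.80 after dexamethasone, 11.61 and 11.63 after AICAR and 9.84 and 9.78 after the combination: each agent alone raised it, by 1.42 for AICAR and 1.52 for dexamethasone, and the combination lay below vehicle (-0.40 ± 0.08, interaction -3.33, adjusted p = 1.35e-06).

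**Figure D5:**
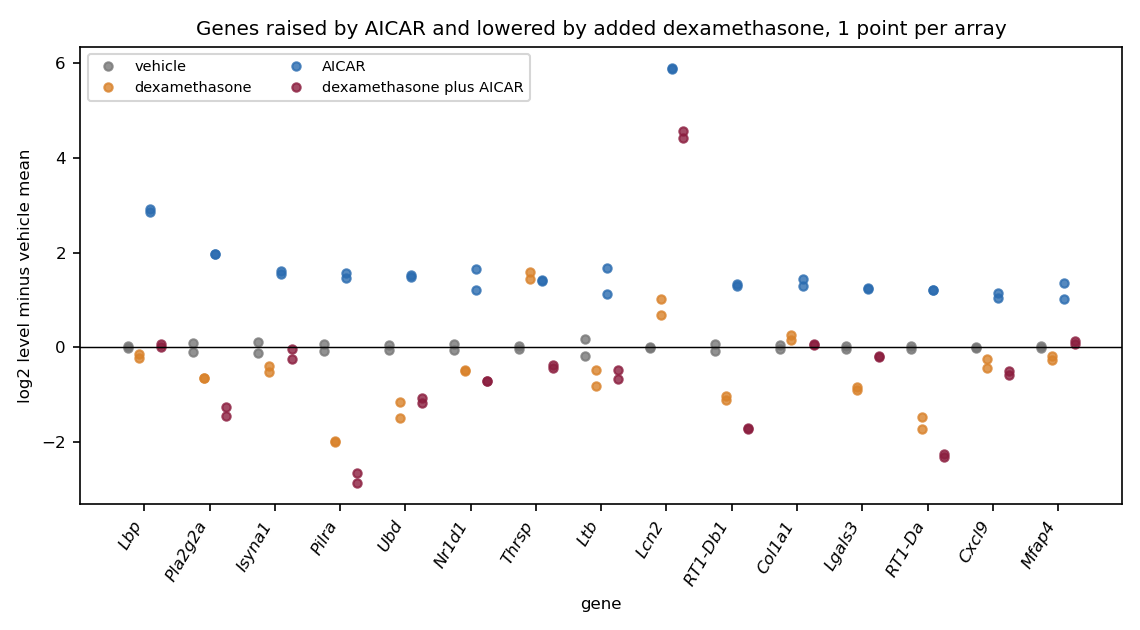
The 15 genes with the largest AICAR rise and dexamethasone fall, as log2 level minus the vehicle mean of the gene, 1 point per array in the 4 groups. The AICAR points lie highest for 14 of the 15 genes, Lbp, Col1a1 and Mfap4 return to the vehicle level in the combination, Lcn2 stays above it, and Pilra, RT1-Da and RT1-Db1 fall below it.

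Promoters of 3 of these genes are shown because they hold the letters of an NF-kB site, a motif of inflammatory genes. Of the 15 genes, 11 had a RefSeq promoter entry, and GGG followed by any 2 bases and TTTCC, searched on both strands, was found in those of Pla2g2a, Ubd, Ltb and Nr1d1 (for Nr1d1 in 1 of its windows), and in 1.53% of all 33469 promoters. The Y box letters were found in those of RT1-Da, RT1-Db1 and Cxcl9. The palindromic glucocorticoid response element, AGNACA and TGTNCT with any 3 bases between them, also searched on both strands, was in none of the 11 and in 0.0568% of all promoters, which says only that these letters are not in these windows. The windows are chr5:156359475-156359774 (plus strand), chr20:1392636-1392935 (minus strand) and chr20:3634005-3634304 (minus strand), build GRCr8, with the match in capitals.
Pla2g2a: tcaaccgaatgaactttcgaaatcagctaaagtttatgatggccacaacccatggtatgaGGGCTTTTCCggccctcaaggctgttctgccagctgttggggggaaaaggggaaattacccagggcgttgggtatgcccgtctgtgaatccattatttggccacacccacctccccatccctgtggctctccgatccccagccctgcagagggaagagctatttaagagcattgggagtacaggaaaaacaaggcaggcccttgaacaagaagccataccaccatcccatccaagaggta
Ubd: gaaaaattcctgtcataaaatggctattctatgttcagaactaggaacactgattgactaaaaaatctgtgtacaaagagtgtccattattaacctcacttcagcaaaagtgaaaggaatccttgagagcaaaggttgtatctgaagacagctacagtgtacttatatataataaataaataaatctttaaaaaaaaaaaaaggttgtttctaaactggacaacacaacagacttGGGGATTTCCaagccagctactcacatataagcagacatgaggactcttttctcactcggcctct
Ltb: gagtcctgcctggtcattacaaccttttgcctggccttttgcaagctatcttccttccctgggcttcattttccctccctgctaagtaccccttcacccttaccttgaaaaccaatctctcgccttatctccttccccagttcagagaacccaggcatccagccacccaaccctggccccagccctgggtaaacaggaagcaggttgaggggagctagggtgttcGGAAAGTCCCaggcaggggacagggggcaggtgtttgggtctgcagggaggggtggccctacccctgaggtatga
The match began 190, 15 and 25 bases before the gene start in Pla2g2a, Ubd and Ltb, and in Ltb it lies on the opposite strand of the gene.

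In the other direction, AICAR lowered 1274 genes (8.96%), and added dexamethasone raised 562 of them (44.1%, beside 18.7% of all genes). The combination was called above vehicle for 188 of these, below for 30 and not called against vehicle for 344. These comparisons also share the AICAR arrays. When the fall was taken from 1 AICAR array and the rise from the other, a check chosen after seeing the data, 160 or 229 of the 562 were called in both, depending on the array used. Hamp, which encodes hepcidin, the liver hormone that blocks iron export, had levels of 11.53 and 11.71 in vehicle, 11.26 and 11.46 after dexamethasone, 9.46 and 9.45 after AICAR and 11.46 and 11.43 after the combination. Only the AICAR arrays stood apart. It fell by 2.17 ± 0.09 under AICAR, and dexamethasone raised it by 1.99 ± 0.09 with AICAR (adjusted p = 1.68e-06) and changed it by -0.26 ± 0.09 without (interaction 2.25, adjusted p = 2.03e-05). Dnpep, an aspartyl aminopeptidase, had levels of 9.15 and 9.25 in vehicle, 9.09 and 9.14 after dexamethasone, 6.32 and 6.55 after AICAR and 8.61 and 8.57 after the combination and rose by 2.15 ± 0.09. Ephx2, the soluble epoxide hydrolase, rose by 1.26 ± 0.08, and Znf750, a zinc finger factor, by 1.73 ± 0.08, with -1.38 and -1.13 under AICAR alone. A2m and Cyp17a1, given above, also belonged to this set.

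The class I genes RT1-N2 and RT1-CE12 had the 2 largest upward interactions. RT1-N2 had levels of 7.14 and 6.95 in vehicle, 3.84 and 3.51 after dexamethasone, 4.47 and 4.36 after AICAR and 8.70 and 8.74 after the combination. Each agent alone lowered it, and the combination lay 4.31 ± 0.12 above AICAR and 1.68 ± 0.12 above vehicle (interaction 7.68, adjusted p = 9.62e-08). The arrays of dexamethasone alone lay near or below 3.84, where RMA levels are close to background. The size of the RT1-N2 fall without AICAR, and so of its interaction, is uncertain. RT1-CE12 had levels of 11.24 and 11.55 in vehicle, 9.23 and 9.0 after dexamethasone, 9.41 and 9.46 after AICAR and 11.74 and 11.81 after the combination, with the same order and an interaction of 4.63. RT1-A, another class I gene, was lower after dexamethasone alone, at 5.48 and 4.72, than in the other groups, and changed by 0.04 ± 0.20 with AICAR. Class I genes of the RT1 complex are many and nearly identical, so the probe sets may measure several of them, and which gene moved is uncertain. Npy, which encodes neuropeptide Y, was the other large upward interaction not described above: its levels were 7.73 and 7.78 in vehicle, 7.08 and 7.12 after dexamethasone, 7.39 and 7.46 after AICAR and 9.67 and 9.63 after the combination, a rise of 2.22 ± 0.07 with AICAR (adjusted p = 2.19e-07) and -0.65 ± 0.07 without.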

How the data were processed

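Total RNA of rat liver had been labelled with biotin and hybridised to Affymetrix arrays, 2 in each of 4 groups, per the labels' protocols. The authors deposited a table of log2 values made with RMA in affy, per the submitters' processing notes. Versions are not given in the sources used here, and the log base was read from the values. RMA corrects background and makes the distributions of the arrays equal, so a change of all genes together cannot be seen. The array medians lay between 5.22 and 5.26. No molecules were counted, so the number of arrays limits the precision.

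After 57 array controls were left out, 31042 probe sets were fitted over all 8 arrays (limma 3.58.1, R 4.3.3; lmFit and eBayes with a coefficient for each group), and Benjamini-Hochberg adjustment over all probe sets. Every adjusted p in the text comes from this fit or from a named alternative. An exact permutation test of 2 against 2 arrays cannot go below 0.333 (two-sided). The interaction subtracts the change without AICAR from the change with it. A gene was named from the platform annotation where a probe set had 1 symbol (20826 probe sets; 436 had several and 9780 none), and 14167 of 14217 genes matched RefSeq by ID. The probe set with the highest mean over all arrays stood for a gene. Summaries used Python 3.11.15 and pandas 2.3.3, and the fit was tested on simulated data.

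The comparison, the 25 gene lists (432 of 473 symbols measured) and the rules were chosen with earlier results of these data known. Named were the 12 largest rises and the 12 largest falls; up to 6 called genes with the smallest p of each list with 3 or more; all measured glucocorticoid targets; 15 genes that AICAR raised and dexamethasone lowered and 8 of the reverse, by the smaller of both changes; 8 interactions in each direction; and called receptor, AMPK and p38 genes. These came to 178 genes. A further 20 genes were named outside the rule after their values were seen: Alb, Ttr, Mpeg1, RT1-DMa, Ciita, Ccne1, S100a8, S100a9, Acaca, Fasn, Fbp1, Ddit3, Hspa5, Igf1, Il1b, Il1rn, Irf1, Mx1, Orm1 and Sqle. The alternatives left out dim probe sets, let the prior follow intensity robustly, fitted the compared groups alone, blocked on replicate number, or used cyclic loess, median centring, the mean of all probe sets of a gene, each array left out, and AICAR arrays not shared between calls. Same-numbered arrays did not deviate together in all pairs, with correlations of -0.04 to 0.16.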

Additional observations from a re-analysis of the deposited data

Results flagged for a closer look

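The effect of dexamethasone differed with and without AICAR, by the interaction in the limma fit, for 4858 probe sets. The most negative interactions were -5.10 for Cd5l, -4.77 for C1qb, -4.18 for Ccl6, -4.09 for Nr0b2, -4.03 for RT1-Bb, -4.01 for C1qa, -3.69 for Clec4f and -3.41 for C1qc. Of these 8 genes, Cd5l, C1qa, C1qb, C1qc and Clec4f are on the list of Kupffer cell markers. The most positive were 7.68 for RT1-N2, 4.63 for RT1-CE12, 3.40 for Fabp4, 3.28 for Ccnd1, 2.94 for RT1-A, 2.88 for Npy, 2.55 for Eci1 and 2.48 for Cxcl1.

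Array controls outside the comparison also differed. The 5S ribosomal RNA control lay at 7.51 ± 0.06 after the combination and 6.71 ± 0.05 after AICAR (SD, n = 2), a difference of 0.80, beside 6.29 in vehicle and 6.59 after dexamethasone. The 3′ control of actin differed by 0.41, at 12.2 and 11.8, beside 11.4 in both groups without AICAR. The part of these differences in the results was not tested.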

How the results depend on the processing

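Dexamethasone with AICAR changed 9563 probe sets, and the count stayed within 1.5 times of that under every alternative on probe sets. With the mean of probe sets per gene it was 5790 of 14217, and without AICAR on board 3666 against 5726 probe sets, where fewer units were tested. Leaving out single arrays gave 6510 to 9596 with AICAR, 3738 to 5303 without it (lowest without vehicle array 2), 2910 to 3991 for the interaction and 370 to 885 for probe sets that AICAR raised and dexamethasone lowered. That last count was 923, and 593 with only the groups compared, 367 and 319 with AICAR arrays not shared. The replicate numbers were not shown to pair arrays, and with the number as a block the 4 counts were 9330, 5448, 4484 and 829. Prkaa1 turned from 0.36 to -0.035 with the mean of its probe sets (adjusted p = 0.728). Of 171 named genes called with AICAR, 157 were called under every alternative, and of 127 called in the interaction, 100 were.

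With 2 arrays a group the spread rests mostly on values pooled over groups and probe sets. RMA levels near background have no certain size of change: 35 of 393 falls of at least 2-fold ended below 3.84, and 8 of 239 rises began there.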
